A study of Mus musculus with 8 samples.

Results

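The B cell and antibody genes examined here are Jchain, Igkc, Ighm, Igha, Cd79a, Cd79b, Mzb1 and Ms4a1, 8 rows of the 24317 genes counted by RNA sequencing in mouse liver. They were taken by symbol because their counts had been seen to differ between the diets and 1 high-salt library had been seen to stand apart. The difference between diets is therefore described for them and not tested. The livers were of C57BL/6 mice, 4 libraries from animals kept for 6 weeks on sodium-rich chow with 6% NaCl (high salt) and 4 from animals on normal chow. The labels give no age, no sex and no other agent. Nothing in them ties a library to its own mouse, so a p-value here reflects how much the 4 libraries of a diet vary, and some of that variation may be technical. The titles of the high-salt libraries begin with the letter N, and an exchange of the diet labels would turn every direction given here. The libraries held 16620368 to 18639685 counts. The 8 hepatocyte markers listed for a check of the tissue summed to 134768 to 141004 CPM, the usual unit of counts scaled to library size, in high salt and 130658 to 148799 CPM in normal chow, as in liver tissue.

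An antibody is built from heavy chains, whose class is set by genes such as Ighm (IgM), Ighg2c (an IgG) and Igha (IgA), and from light chains of kappa (Igkc) or lambda type. B cells carry it on the surface with the signalling chains Cd79a and Cd79b, and plasma cells secrete it. Each B cell clone joins its own pair of variable genes to these constant genes, so the variable genes that are counted reflect which clones are present. The liver holds B cells and plasma cells among its immune cells, drains blood from the gut, and in rodents its hepatocytes pass IgA into bile through the receptor Pigr. In a bulk liver library more B cells and more RNA per B cell cannot be told apart, and reads on Ighm or Igkc do not show whether the chain was secreted or held on the surface.

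High salt library 2 had the highest level of all 8 members among the 8 libraries, and high salt library 3 the second highest of 6 of them. The summed level of the members was 35.2, 313, 94.2 and 92.0 CPM in high salt libraries 1 to 4, against 35.5, 63.8, 23.8 and 33.1 CPM in normal chow libraries 1 to 4. High salt library 1 thus lay inside the range of normal chow, while the other 3 high-salt libraries lay above it. Of all 13341 genes tested, 16.4% were highest in high salt library 2. Levels of different genes are compared per kilobase of exon. On that scale the mean over the 8 libraries was 48.4 CPM per kb for Igkc, 19.1 for Ighm, 5.04 for Jchain and 2.46 for Igha. It was 0.959 for Cd79b, 0.894 for Cd79a, 0.635 for Mzb1 and 0.296 for Ms4a1. Every step between neighbours in this order was smaller than the range over libraries of at least 1 of them, so the order is that of the means only.

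**Figure D1:**
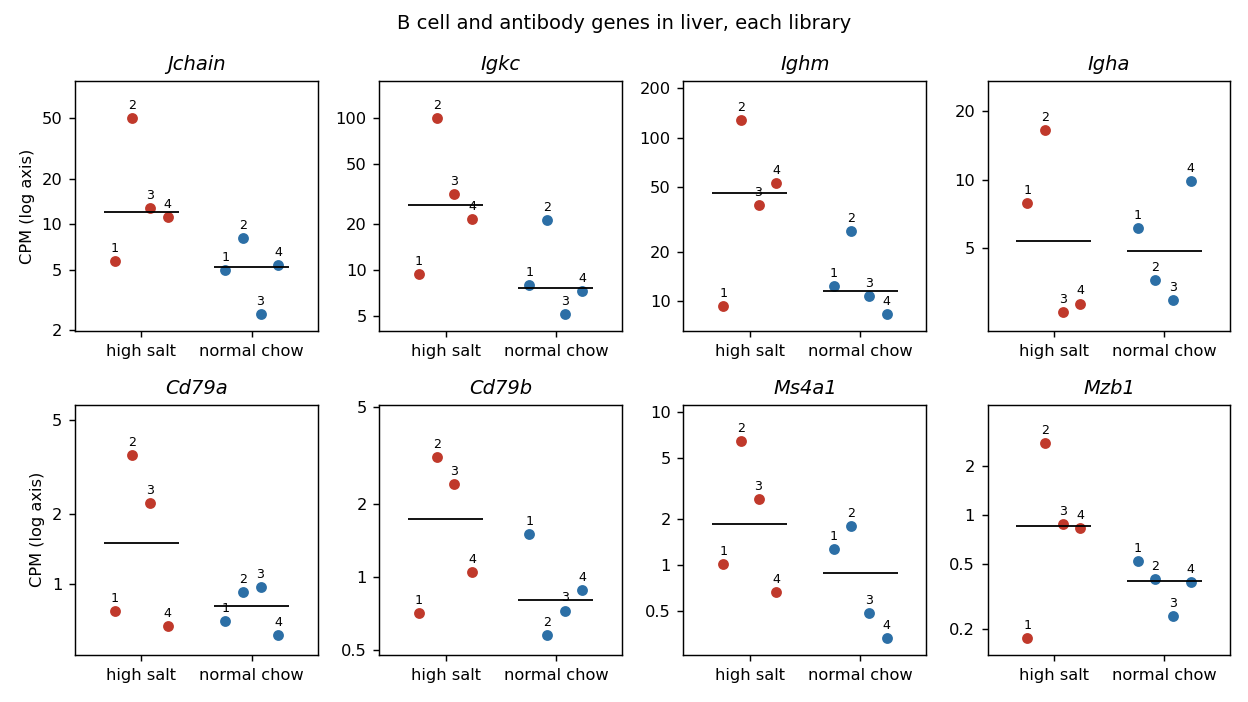
Level of each of the 8 genes in CPM on a log axis, high salt at the left and normal chow at the right of each panel. Each point is a library with its number, and the bar is the group median. High salt library 2 is the highest point in all 8 panels, and the groups overlap in each.

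The genes of the antibody chains and of the joining chain came first in size. Jchain (ENSMUSG00000067149, chromosome 5, 88519809 to 88527891, minus strand, GRCm38) encodes the joining chain that links IgM and IgA units into polymers. Its level was 5.75, 50.6, 12.9 and 11.2 CPM in high salt, against 4.98, 8.10, 2.55 and 5.41 CPM in normal chow. High salt libraries 2, 3 and 4 lay above every normal chow library and library 1 did not. The means were 20.1 ± 20.6 CPM in high salt and 5.26 ± 2.28 CPM in normal chow (SD, n = 4 each), a log2 fold change of 1.93 ± 0.79 (SE). Without high salt library 2 it was 0.91 ± 0.41.

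Igkc (ENSMUSG00000076609, chromosome 6, 70726435 to 70726966, plus strand) is the constant region of the kappa light chain. It was at 9.48, 101, 31.7 and 21.8 CPM in high salt and at 8.0, 21.4, 5.10 and 7.29 CPM in normal chow. The same 3 high-salt libraries lay above all of normal chow, library 4 by a small margin over normal chow library 2. The log2 fold change was 1.98 ± 0.87, and 1.00 ± 0.65 without high salt library 2. A long noncoding gene, Gm30211, overlaps Igkc on the same strand, and reads of both may have been pooled or dropped.

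Ighm (ENSMUSG00000076617, chromosome 12, 113418558 to 113422730, minus strand) is the constant region of IgM, the class that a B cell makes before it switches. Its level was 9.36, 129, 38.8 and 52.8 CPM in high salt, against 12.3, 27.0, 10.7 and 8.34 CPM in normal chow. High salt library 1 lay below normal chow libraries 1, 2 and 3, and the other 3 lay above all of normal chow. The log2 fold change was 1.98 ± 0.83, and 1.20 ± 0.71 without high salt library 2. High salt library 4 was second to library 2 in this gene only.

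Igha (ENSMUSG00000095079, chromosome 12, 113254830 to 113260236, minus strand), the constant region of IgA, the class of mucosal surfaces and bile, did not follow the others. It was at 7.94, 16.5, 2.64 and 2.87 CPM in high salt and at 6.14, 3.65, 2.97 and 9.83 CPM in normal chow. High salt libraries 3 and 4, among the highest for IgM, held the lowest IgA levels of all 8 libraries, with normal chow library 3 close to them. Their counts were 45 and 52, against 49 in that normal chow library, so the order of these libraries is within counting error. The log2 fold change was 0.40 ± 0.71, and it turned to -0.35 ± 0.60 without high salt library 2. Over the 8 libraries Igha correlated with the other 6 members that passed the low-count filter at r = 0.101 to 0.437 (log2 CPM, 6 pairs, median 0.308), while the 15 pairs among those 6 had r = 0.689 to 0.977 (median 0.828). Without high salt library 2 the ranges were -0.769 to -0.273 for pairs with Igha and 0.390 to 0.952 for the rest. These points share libraries and, in large part, that 1 library, and the r values are a description.

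The genes of the B cell surface were low, at 6 to 117 counts per library, so counting error is a large part of their spread. Cd79a (ENSMUSG00000003379, chromosome 7, 24897381 to 24902197, plus strand), a signalling chain of the B cell receptor, was at 0.770, 3.56, 2.23 and 0.662 CPM in high salt, against 0.695, 0.926, 0.971 and 0.608 CPM in normal chow. Its partner Cd79b (ENSMUSG00000040592, chromosome 11, 106311341 to 106314762, minus strand) was at 0.711, 3.12, 2.40 and 1.05 CPM in high salt and at 1.51, 0.579, 0.728 and 0.884 CPM in normal chow. Ms4a1 (ENSMUSG00000024673, chromosome 19, 11249675 to 11266241, minus strand) encodes CD20, a membrane protein of B cells that plasma cells lack. It was at 1.01, 6.4, 2.70 and 0.662 CPM in high salt and at 1.27, 1.79, 0.485 and 0.331 CPM in normal chow. In all 3 genes only high salt libraries 2 and 3 lay above every normal chow library. The log2 fold changes were 1.17 ± 0.51 for Cd79a, 0.97 ± 0.46 for Cd79b and 1.47 ± 0.83 for Ms4a1, and without high salt library 2 they were 0.60 ± 0.43, 0.57 ± 0.44 and 0.57 ± 0.63. An antisense gene, 4930526L06Rik, overlaps Ms4a1, and no strand setting is given in the sources used here.

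Mzb1 (ENSMUSG00000024353, chromosome 18, 35647266 to 35649367, minus strand) encodes a protein of the endoplasmic reticulum that assists antibody assembly in B and plasma cells. With 3, 50, 15 and 15 counts in high salt and 9, 7, 4 and 7 in normal chow, it did not pass the low-count filter. Its level was 0.178, 2.74, 0.880 and 0.827 CPM in high salt, against 0.521, 0.405, 0.243 and 0.387 CPM in normal chow. As with the antibody chains, libraries 2, 3 and 4 of high salt lay above normal chow, and library 1 held the lowest level of the 8. A protein-coding gene, SPATA24, overlaps it on the same strand.

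High salt library 4 separated the 2 kinds of gene. The summed level of Jchain, Igkc and Ighm was 24.6, 281, 83.4 and 85.9 CPM in high salt and 25.3, 56.4, 18.4 and 21 CPM in normal chow. That of Cd79a, Cd79b and Ms4a1 was 2.49, 13.1, 7.33 and 2.37 CPM in high salt and 3.48, 3.30, 2.18 and 1.82 CPM in normal chow. Libraries 3 and 4 of high salt were therefore alike in antibody chains but 7.33 against 2.37 CPM in surface genes, where library 4 lay inside the range of normal chow. The ratio of the sums was 9.88, 21.5, 11.4 and 36.2 in high salt, against 7.28, 17.1, 8.42 and 11.5 in normal chow.

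**Figure D2:**
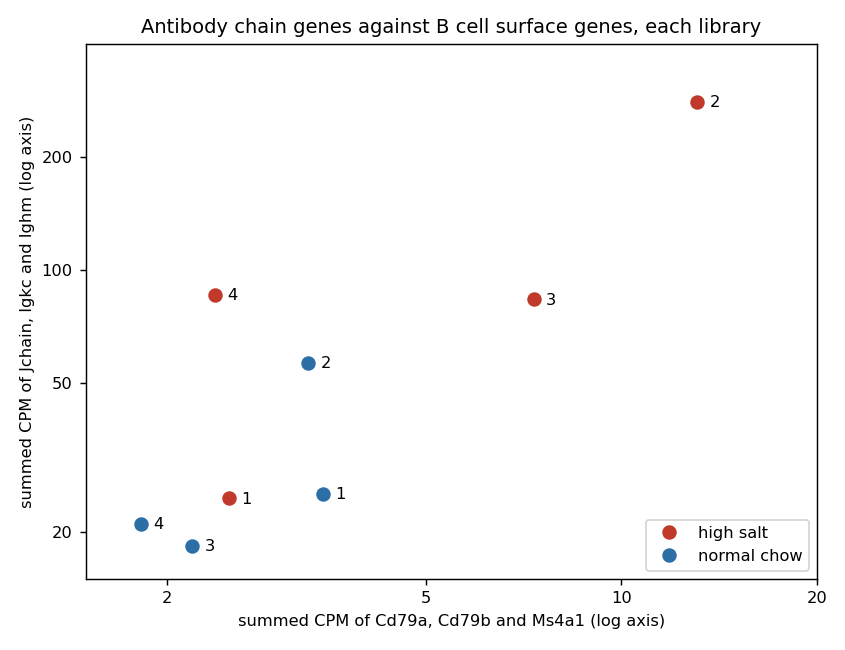
Summed level of Jchain, Igkc and Ighm on the vertical axis against that of Cd79a, Cd79b and Ms4a1 on the horizontal axis, both in CPM on log axes, 1 numbered point per library. High salt libraries 3 and 4 stand at the same height, 83.4 and 85.9 CPM, and apart along the horizontal axis, 7.33 and 2.37 CPM.

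In the fit over all 13341 tested genes, edgeR's quasi-likelihood test with Benjamini-Hochberg adjustment called 40 genes at an adjusted p below 0.05, or 0.3% (20 higher and 20 lower, 0.15% each). Of the 7 members that passed the filter 0 were called by edgeR, DESeq2 (1.79% of all tested genes) or limma-voom (0.127%). At an unadjusted p below 0.05 edgeR had 2 of the 7 (Jchain and Cd79a), DESeq2 5 and limma-voom 0. That level was reached, higher in high salt, by 5.33% of all tested genes with edgeR, 4.92% with DESeq2 and 5.29% with limma-voom. The members were picked on these values, so nothing is read from these counts. The median log2 fold change of the 7 was 1.47, and 0.598 without high salt library 2. Over all tested genes these medians were 0.00596 and -0.000756, and 51.3% of tested genes had a value above 0 with all 8 libraries. High salt library 2 contributed from 44.2% (Cd79b) to 64.0% (Jchain) of the counts of the 4 high-salt libraries. All 4 high-salt libraries lay above all 4 of normal chow for 0 of the 8 members and for 2.98% of tested genes.

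**Figure D3:**
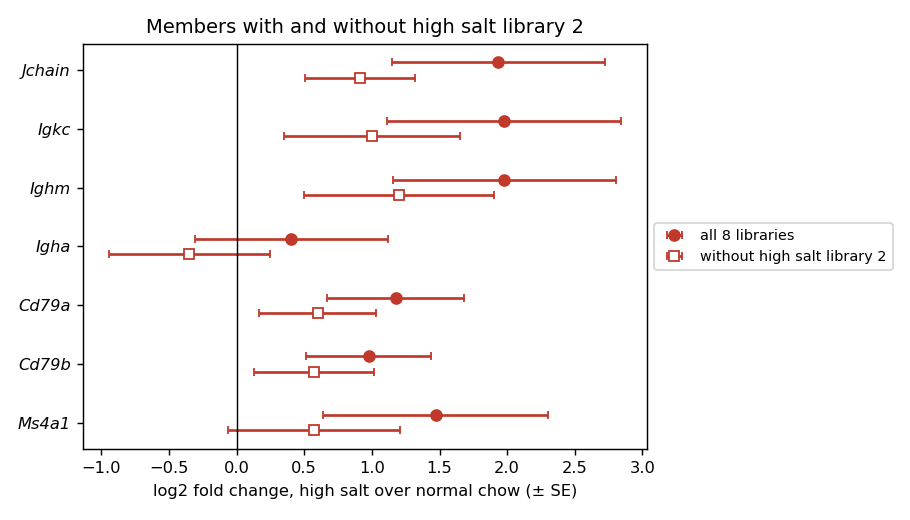
Log2 fold change of high salt over normal chow (horizontal axis, ± SE) for the 7 members that passed the low-count filter, with all 8 libraries (filled) and without high salt library 2 (open). Each value is smaller without that library, and that of Igha lies on the other side of 0, at -0.35 where it is 0.40 with all 8.

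The other antibody constant genes are not members, but their list was chosen with earlier results of these data known. Their p-values are therefore not independent of that choice. The 8 constant genes tested include the members Igkc, Ighm and Igha. Ighg2c (ENSMUSG00000076612, chromosome 12, 113285325 to 113288932, minus strand), an IgG constant region that C57BL/6 mice carry in place of Ighg2a, had the largest difference of the 8 constant genes tested. Its level was 1.07, 48.3, 13.5 and 7.94 CPM in high salt, against 1.22, 1.45, 0.971 and 1.55 CPM in normal chow. Libraries 2, 3 and 4 of high salt lay well above a narrow normal chow range, and library 1 lay inside it. The log2 fold change was 3.76 ± 1.17 (adjusted p = 0.336, edgeR's quasi-likelihood test with Benjamini-Hochberg adjustment), and 2.52 ± 0.81 without high salt library 2 (adjusted p = 0.449). DESeq2 called it (adjusted p = 0.00759), among 98 genes called higher by that tool (0.735% of genes tested). In the authors' deposited table its fold was 13.6 with an adjusted p of 0.00899. The call thus depended on the tool, since limma-voom and edgeR did not make it.

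Among the remaining IgG genes Ighg2b was at 1.6, 22.0, 3.70 and 7.22 CPM in high salt and at 1.1, 5.67, 0.971 and 2.1 CPM in normal chow. Its log2 fold change was 1.81 ± 0.98 (adjusted p = 0.580, edgeR's quasi-likelihood test). Ighg3 was at 0.178, 2.85, 5.10 and 0.717 CPM in high salt and at 0.116, 2.72, 0.121 and 0 CPM in normal chow, so normal chow library 2 reached the level of high salt library 2. Its log2 fold change was 1.57 ± 1.38 and that of Ighg1 1.3 ± 0.78, with adjusted p = 0.762 and 0.603 by the same edgeR test. Ighd, the IgD constant region of resting B cells, had 0.48 ± 0.43 (edgeR's adjusted p = 0.752). Without high salt library 2 the log2 fold changes were 0.76 ± 0.78 for Ighg2b, 0.13 ± 0.50 for Ighg1 and 1.42 ± 1.61 for Ighg3, and that of Ighd turned to -0.04 ± 0.39. Ighe, Iglc1, Iglc2, Iglc3 and Iglc4 did not pass the filter, and had 7, 112, 46, 7 and 1 counts over the 8 libraries. Neighbouring IgG genes are similar in sequence, and no rule for reads that matched several is given in the sources used here.

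The mix of antibody classes differed widely between libraries of the same diet. Heavy chain constant genes held 367, 4114, 1126 and 1318 counts in high salt and 407, 725, 280 and 418 in normal chow. Shares of these counts are not corrected for gene length, so they compare libraries and not classes. Intervals below are exact binomial 95% intervals and cover counting error only. IgM made up 43.1, 57.2, 58.7 and 72.7% in high salt and 52.3, 64.3, 63.2 and 36.1% in normal chow. IgA made up 36.5, 7.32, 4.00 and 3.95% in high salt, against 26.0, 8.69, 17.5 and 42.6% in normal chow. High salt library 1, with an IgA share of 31.6 to 41.7% by its interval, resembled normal chow library 4 (37.8 to 47.5%) and stood far from high salt library 3 (2.93 to 5.31%). Ighg2c made up 4.90, 21.4, 20.5 and 10.9% in high salt and 5.16, 3.45, 5.71 and 6.70% in normal chow. The intervals of high salt library 4 (9.29 to 12.7%) and normal chow library 4 (4.50 to 9.54%) overlapped slightly, and those of high salt libraries 2 and 3 overlapped none of normal chow. On average Ighg2c took 14.4 ± 7.94% in high salt and 5.26 ± 1.36% in normal chow (SD, n = 4 each), and the ranges overlapped.

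**Figure D4:**
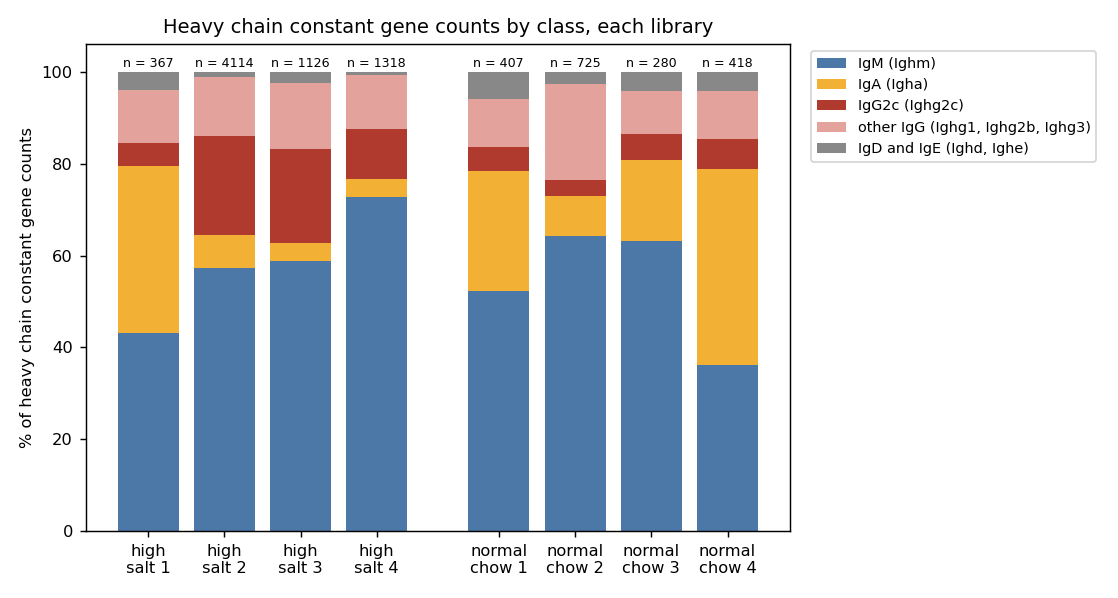
Share of heavy chain constant gene counts in each class (vertical axis, %) for each library, high salt at the left, with the number of counts above each bar. The Ighg2c segment is widest in high salt libraries 2 and 3 (21.4 and 20.5%), and the IgA segment in high salt library 1 and normal chow library 4 (36.5 and 42.6%).

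The type of light chain varied from library to library as well. Lambda constant genes made up 1.84, 4.83, 4.59 and 1.25% of light chain constant counts in high salt and 5.48, 2.89, 1.18 and 12.0% in normal chow, from 1 to 94 lambda counts per library. Jchain had 0.264, 0.225, 0.195 and 0.155 counts per heavy chain constant count in high salt, against 0.211, 0.193, 0.150 and 0.234 in normal chow. The ranges of both measures overlapped between the diets.

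The table listed 181 antibody variable genes, 91 heavy, 87 kappa and 3 lambda. They summed to 323, 2975, 896 and 776 counts in high salt and to 206, 486, 121 and 193 in normal chow, and 110 of the 181 were highest in high salt library 2. At least 1 count was found for 67, 161, 104 and 92 of them in high salt and for 80, 80, 59 and 73 in normal chow. More genes are seen where more counts are taken. At an equal 121 counts the expected number was 39.7, 51.5, 46.8 and 44.5 in high salt, against 62.6, 39.5, 59.0 and 55.6 in normal chow. At equal depth, 3 of the 4 normal chow libraries thus spread their counts over more variable genes than any high-salt library, and normal chow library 2 over about as few as high salt library 1.

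The variable genes below led a library or were high beside its leader, and are shown because the leaders differed between libraries. Each line gives the last 90 bases of the reference segment, 5′ to 3′ on its coding strand, from the GENCODE M21 transcripts of GRCm38. Capitals run from the conserved cysteine codon to the end of the segment, where the last of the hypervariable loops of an antibody begins. These are reference letters, not sequences read from the libraries. Heavy segments lie on chromosome 12 and kappa segments on chromosome 6.
Ighv1-53: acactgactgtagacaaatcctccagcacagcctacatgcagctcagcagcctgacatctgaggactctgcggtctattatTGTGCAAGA
Igkv3-2: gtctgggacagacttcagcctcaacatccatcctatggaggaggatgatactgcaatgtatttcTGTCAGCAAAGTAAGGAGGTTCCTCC
Ighv3-8: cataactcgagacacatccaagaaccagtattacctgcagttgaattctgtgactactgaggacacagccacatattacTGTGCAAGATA
Igkv6-14: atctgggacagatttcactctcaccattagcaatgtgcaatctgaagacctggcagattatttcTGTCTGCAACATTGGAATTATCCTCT
Ighv1-11: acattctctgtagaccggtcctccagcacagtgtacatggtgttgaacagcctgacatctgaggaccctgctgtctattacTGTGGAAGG
Igkv8-16: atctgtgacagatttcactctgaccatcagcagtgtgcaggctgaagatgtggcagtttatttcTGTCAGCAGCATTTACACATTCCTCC
Ighv5-17: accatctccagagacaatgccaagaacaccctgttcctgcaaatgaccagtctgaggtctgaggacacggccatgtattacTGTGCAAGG
Ighv1-20: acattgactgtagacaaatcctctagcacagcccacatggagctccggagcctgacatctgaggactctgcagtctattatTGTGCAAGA

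Ighv1-53 (chromosome 12, 115158403 to 115158835, minus strand) and Igkv3-2 (chromosome 6, 70698449 to 70699067, plus strand) were high together in the same 3 libraries. Ighv1-53 had 6, 178, 27 and 93 counts in high salt and 1, 9, 1 and 1 in normal chow. Igkv3-2, the variable gene of highest total, had 2, 480, 107 and 198 counts in high salt and 4, 0, 2 and 3 in normal chow. They led the heavy and the light variable genes of high salt library 2, with 18.4% and 23.9% of its counts of each kind, and of high salt library 4, with 38.0% and 37.3%. In high salt library 3 Igkv3-2 stood 1 count behind Igkv3-4, 107 against 108, and Ighv1-53 was second. In the authors' deposited table Igkv3-2 had a fold of 83.5 (adjusted p = 0.00113) and Ighv1-53 one of 24.1 (adjusted p = 0.0127). Neither passed the count filter, and edgeR with no filter gave adjusted p = 0.285 for Igkv3-2 and 0.352 for Ighv1-53, so that it called neither.

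High salt library 1 was led by other genes. Gene counts of a bulk library do not show which heavy, light and constant genes were joined within a cell. Ighv3-8 (chromosome 12, 114322327 to 114322801, minus strand) had 46, 3, 0 and 0 counts in high salt and 0, 0, 1 and 0 in normal chow, and gave 44.7% of the heavy variable counts of library 1 (exact interval 34.9 to 54.8%). Igkv6-14 (chromosome 6, 70434952 to 70435476, minus strand) had 103, 2, 1 and 0 counts in high salt and 1, 2, 0 and 0 in normal chow, and gave 46.8% of its light variable counts (40.1 to 53.6%). This was the high-salt library with IgA at 36.5% of heavy counts.

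Other genes were high together in libraries of both diets, and whether they came from the same cells cannot be read from gene counts. Ighv1-11 (chromosome 12, 114612243 to 114612675, minus strand) had 0, 7, 38 and 5 counts in high salt and 0, 31, 0 and 0 in normal chow, and Igkv8-16 (chromosome 6, 70386672 to 70387252, minus strand) had 0, 8, 65 and 7 counts in high salt and 0, 40, 0 and 0 in normal chow. High salt library 3 and normal chow library 2 were the highest 2 libraries for both. The constant gene Ighg3 was also high in these 2 libraries, at 87 and 47 counts, with 52 in high salt library 2 and at most 13 in any other.

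The heavy variable genes that led the normal chow libraries were different again, but light leaders were shared. Igkv3-4 led the light genes of normal chow library 2, with 68 counts, as it led those of high salt library 3, with 108. Iglv1 led those of normal chow libraries 1 and 4, with 11 and 17 counts. Ighv5-17 had 61 of 157 heavy variable counts in normal chow library 2 (38.9%) and at most 7 counts in any other library. Ighv1-20 had 23 of 75 in normal chow library 4 (30.7%) and at most 2 elsewhere. In normal chow libraries 1 and 3 no heavy gene led clearly, with 5 counts for Ighv1-76 (8.62%, exact interval 2.86 to 19.0%) and 4 for Ighv6-4 (8.16%, 2.27 to 19.6%). Segments of 1 family are alike, and the closest relative of Ighv1-20 shared 98.6% of aligned bases, that of Ighv1-53 96.3%, of Igkv3-2 93.0% and of Igkv8-16 82.8%. Reads of close relatives may have been assigned to either or to neither.

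**Figure D5:**
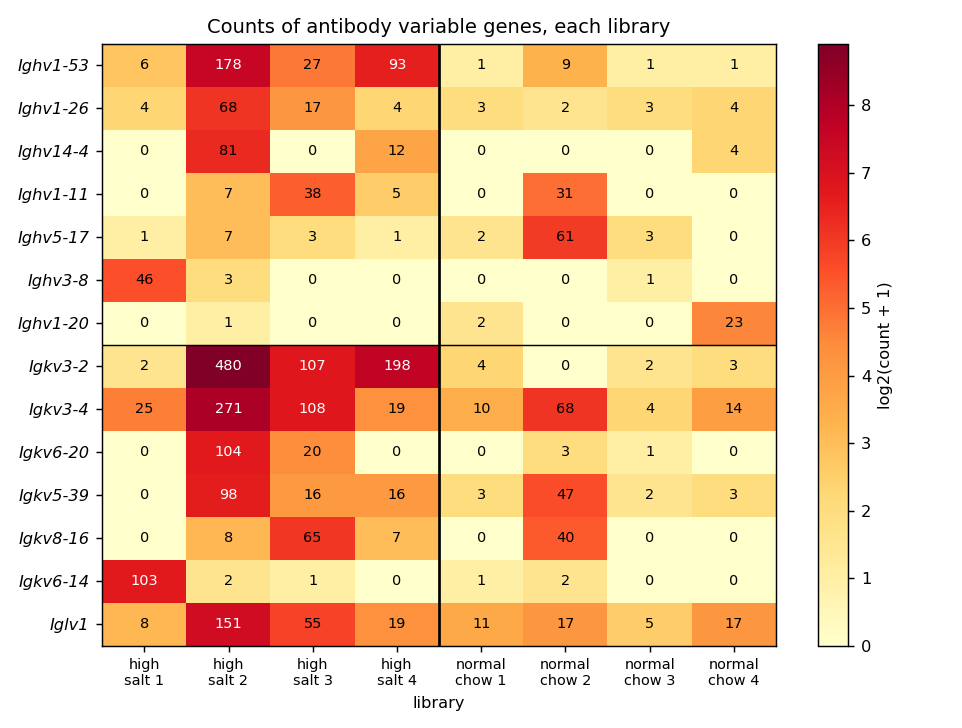
Counts of 14 antibody variable genes (rows, heavy above the thin line and light below it) in each library (columns, high salt left of the thick line), with the colour on a log2(count + 1) scale. Ighv1-53 and Igkv3-2 are high in high salt libraries 2, 3 and 4, Ighv3-8 and Igkv6-14 in high salt library 1, and Ighv1-11 and Igkv8-16 in high salt library 3 and normal chow library 2.

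Most variable genes were too sparse to test, and 3 of 181 passed the filter. These were Igkv3-4, Iglv1 and Igkv5-39, with log2 fold changes of 2.09 ± 1.15, 2.17 ± 0.92 and 1.18 ± 1.4 and adjusted p = 0.590, 0.459 and 0.834 (edgeR's quasi-likelihood test). Over the alternatives fitted the log2 fold change ran from 1.08 to 3.44 for Igkv3-4 and from 1.12 to 2.52 for Iglv1. For Igkv5-39 it ran from -0.38, without high salt library 2, to 3.49, without normal chow library 2. Of the 3, edgeR, DESeq2 and limma-voom called 0, and 0, 1 and 0 had an unadjusted p below 0.05. With no filter edgeR called 5 of 181, all higher in high salt, beside 0.366% of all 24317 genes called higher in that fit. The authors' deposited table has an adjusted p below 0.05 for 5 of the 51 variable genes that carry an adjusted p there, and for 0.534% of all genes in the higher direction. The genes Igkv4-57-1 and Ighv1-64 were in both sets and are named here after their values were seen. Igkv4-57-1 had 3, 19, 5 and 7 counts in high salt and 0 in each normal chow library, and Ighv1-64 had 5, 43, 5 and 9 in high salt and 0, 1, 0 and 1 in normal chow. In both, all 4 high-salt libraries lay above all 4 of normal chow, as in Igkv4-72, Ighv1-69 and Ighv9-3, and unlike Igkv3-2 and Ighv1-53. This held for 2.98% of the genes that passed the filter, and the share over all 24317 genes is not given here. It rests on low counts in genes picked for their calls, so nothing is read from it. Igkv4-72, Ighv1-69 and Ighv9-3 made up the rest of the set without a filter, and Igkv3-2, Ighv1-53 and Ighv1-26 the rest of the authors' set.

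Genes around the members moved less than the antibody chains. None of the genes in the 8 further lists of B cell and antibody biology was called by edgeR, and the numbers at an unadjusted p below 0.05 are given beside 5.33% of tested genes higher and 5.6% lower. Of 25 tested genes of B cell receptor signalling, 1 was higher and 1 lower at that level, with a median log2 fold change of 0.08. Without high salt library 2 these were 0 higher, 1 lower and -0.02. Cd37, a membrane tetraspanin of B cells, had 0.65 ± 0.28 (adjusted p = 0.413, edgeR) and Fcgr2b, the inhibitory IgG receptor, -0.21 ± 0.07 (adjusted p = 0.312, edgeR). In liver Fcgr2b is mainly a gene of sinusoidal endothelium. High salt library 2 was the highest for 48.0% of the tested signalling genes, beside 16.4% of all tested genes.

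Among 15 tested transcription factors of B and plasma cells, 3 were higher at an unadjusted p below 0.05 and 1 lower, with a median of 0.32. Without high salt library 2, 1 was higher and 1 lower, with a median of 0.16. Pax5, which holds B cell identity, was at 0.237, 2.02, 1.23 and 0.606 CPM in high salt and at 0.753, 0.231, 0.303 and 0.387 CPM in normal chow. As with the surface genes, high salt libraries 2 and 3 alone lay above normal chow. Pou2af1, a coactivator at antibody gene promoters, was at 0.948, 3.78, 1.29 and 0.827 CPM in high salt and at 0.695, 0.521, 0.850 and 1.05 CPM in normal chow. The log2 fold changes were 1.28 ± 0.59 for Pax5 and 1.13 ± 0.49 for Pou2af1 (edgeR's adjusted p = 0.455 and 0.434), and 0.71 ± 0.55 and 0.38 ± 0.35 without high salt library 2. Bcl6, a repressor of germinal centre B cells that hepatocytes also express, was at 16.3, 15.9, 17.6 and 11.3 CPM in high salt and at 27.1, 20, 23.0 and 29.7 CPM in normal chow. All 4 high-salt libraries lay below all 4 of normal chow, as for 3.37% of tested genes. Its log2 fold change was -0.71 ± 0.15, with adjusted p = 0.0914 by edgeR and a call by DESeq2 (adjusted p = 0.00255). Tcf3, a helix-loop-helix factor of early B cells and other tissues, had 0.32 ± 0.10 (adjusted p = 0.256, edgeR) with no overlap between groups.

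Of 17 tested genes of antibody secretion and plasma cells, 3 were lower at an unadjusted p below 0.05 and 0 higher, with a median of -0.10. Most of these genes also serve protein secretion by hepatocytes. Edem1, of glycoprotein quality control, was at 134 to 160 CPM in high salt and 173 to 198 CPM in normal chow, a log2 fold change of -0.31 ± 0.08 (adjusted p = 0.180 by edgeR, and a DESeq2 call at 0.0243). Sdc1, a surface proteoglycan of plasma cells and of hepatocytes, had -0.33 ± 0.11 (adjusted p = 0.300, edgeR). Tnfrsf17, a survival receptor of plasma cells, had at most 0.117 CPM in any library, which leaves it near the limit of detection.

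Survival factors, chemokines and their receptors numbered 9 tested genes, of which 2 were higher at an unadjusted p below 0.05 and 0 lower, and 1 and 0 without high salt library 2. Cxcl13, a chemokine that attracts B cells, was at 7.53, 5.42, 9.09 and 5.51 CPM in high salt and at 3.77, 6.42, 2.55 and 2.1 CPM in normal chow, a log2 fold change of 0.89 ± 0.33 (adjusted p = 0.359, edgeR). Its order did not follow the members, since high salt library 2 was the lowest of the high-salt libraries. The chemokine receptor Cxcr4 had 0.66 ± 0.24 (adjusted p = 0.323, edgeR). Of 8 tested receptors that carry or bind antibodies, 0 were higher and 2 lower at that level, Fcgr2b and Fcgr3 (-0.26 ± 0.12, adjusted p = 0.437, edgeR). Pigr, the IgA carrier, was at 1589, 1392, 1584 and 1636 CPM in high salt and at 1425, 1704, 1747 and 1858 CPM in normal chow, with overlapping groups. For MHC class II, which B cells share with other antigen-presenting cells, 3 of 10 tested genes were higher and 0 lower, with a median of 0.32. Without high salt library 2, 0 were higher and the median was -0.01. H2-Aa was at 48.7, 79.8, 66.2 and 73.4 CPM in high salt and at 57.6, 59.4, 49.9 and 46.0 CPM in normal chow (log2 fold change 0.33 ± 0.14, adjusted p = 0.425, edgeR), and H2-Ab1 had 0.35 ± 0.15 (adjusted p = 0.419, edgeR). Of 8 listed B cell precursor genes 5 were analysed and 2 tested, and Dntt had -0.97 ± 0.54 (adjusted p = 0.590, edgeR) and Il7r 0.12 ± 0.24 (adjusted p = 0.911, edgeR).

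Markers of other cells were read beside the members. The 17 T cell markers summed to 8.77, 20.5, 16.5 and 10.5 CPM in high salt and to 16.2, 10.5, 13.4 and 8.12 CPM in normal chow. High salt library 2 was highest here as well, but within a narrower range, and 0 of 10 tested markers reached an unadjusted p below 0.05. The 7 analysed of 12 listed markers of intestinal epithelium summed to 76.3, 76.1, 71.8 and 47.0 CPM in high salt and to 37.6, 43.3, 40.9 and 64.4 CPM in normal chow. Most of that sum was Fabp2, a fatty acid carrier, at 69.0, 67.8, 64.3 and 39.4 CPM in high salt and at 30.2, 38.3, 37.1 and 54.6 CPM in normal chow, while the gut markers Muc2, Tff3 and Krt20 had at most 3 counts in a library. Stromal and epithelial markers found next to lymphoid tissue summed to 9.30, 10.9, 15.5 and 7.55 CPM in high salt and to 8.0, 8.10, 4.07 and 4.14 CPM in normal chow. Cr2 and Fcer2a of this list also stand in the list of B cell receptor genes, so the sum is not one of stroma and epithelium alone. Madcam1 had 2 counts at most. Glycam1, of lymph node vessels, had 16 counts in high salt library 3, 1 in normal chow library 2 and 0 in the other 6. Pancreas markers summed to 14.4 to 18.5 CPM in high salt and 10.8 to 22.9 CPM in normal chow. The part of these cells in the members' levels was not tested.

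The lists of natural killer cells, Kupffer cells and macrophages, neutrophils, dendritic cells, red cell precursors and bile duct cells also held 0 genes called by edgeR. The natural killer cell markers summed to 6.57 to 8.81 CPM in high salt and 6.37 to 13.3 CPM in normal chow, and the macrophage markers to 576 to 723 CPM in high salt and 667 to 697 CPM in normal chow. Neutrophil markers summed to 3.87 to 5.75 CPM in high salt and 3.76 to 4.8 CPM in normal chow, and dendritic cell markers to 10.8 to 17.8 CPM in high salt and 11.3 to 15 CPM in normal chow. For red cell precursors the sums were 97.2 to 140 CPM in high salt and 113 to 179 CPM in normal chow, and for bile duct cells 28.3 to 43.5 CPM in high salt and 28.8 to 43.0 CPM in normal chow. The groups overlapped in each of these lists. Among the genes named from them, Ccl5, a chemokine of T and natural killer cells, was at 1.19, 1.42, 1.17 and 1.38 CPM in high salt and at 3.94, 1.5, 4.31 and 1.66 CPM in normal chow, with no overlap. Its log2 fold change was -1.13 ± 0.34 (adjusted p = 0.219, edgeR), and edgeR with no filter called it lower (adjusted p = 0.0294), as it did 0.539% of all genes in that fit. Cd163, a macrophage receptor, had -0.43 ± 0.12 (adjusted p = 0.191, edgeR) and was also called lower with no filter (adjusted p = 0.0150, edgeR). Gzma, a protease of cytotoxic lymphocytes, had -1.68 ± 0.60 (adjusted p = 0.337, edgeR). Marco, a scavenger receptor of macrophages, had 1.17 ± 0.33 (adjusted p = 0.248 by edgeR, a DESeq2 call at 0.0032, and an edgeR call at 0.0454 without normal chow library 1).

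Genes most like the members were found by the Pearson r of log2 CPM with the mean standardised level of the 7 tested members over the 8 libraries, with antibody genes and predicted models left out. Those named here were Mff (r = 0.980), Syk (0.966), Angptl2 (0.954), Prickle2 (0.949), Cd4 (0.939), Gramd1b (0.937) and Tmem234 (0.930). Syk encodes a tyrosine kinase. Syk was at 6.58, 10.1, 7.74 and 7.66 CPM in high salt and at 6.84, 7.12, 6.13 and 6.96 CPM in normal chow. It was highest in high salt library 2 and lowest in normal chow library 3. Without high salt libraries 2 and 3, the libraries farthest from the median, r was 0.874 for Mff, 0.852 for Syk and 0.616 for Cd4. With 8 points chosen as the best of all tested genes, these r values carry no test.

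RefSeq promoters (GRCm38.p6, 250 bases before to 50 after the start) were at hand for only 2 of the 8 members, Jchain and Cd79a, and these are shown. Both stood at their highest in high salt library 2, as all 8 members did. Capitals mark the E-box CAGGTG, read on either strand, a motif of the factor encoded by Tcf3.
Jchain: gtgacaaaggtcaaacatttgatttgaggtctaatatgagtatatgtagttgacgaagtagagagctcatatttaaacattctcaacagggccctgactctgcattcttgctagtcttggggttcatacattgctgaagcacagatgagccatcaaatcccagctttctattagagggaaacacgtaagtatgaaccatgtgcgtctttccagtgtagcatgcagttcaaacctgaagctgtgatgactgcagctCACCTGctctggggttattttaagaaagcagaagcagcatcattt
Cd79a: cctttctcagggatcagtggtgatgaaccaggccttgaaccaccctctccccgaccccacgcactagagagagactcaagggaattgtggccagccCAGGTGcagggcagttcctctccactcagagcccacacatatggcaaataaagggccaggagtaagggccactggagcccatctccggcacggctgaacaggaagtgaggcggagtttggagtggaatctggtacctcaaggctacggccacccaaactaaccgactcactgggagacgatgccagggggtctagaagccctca
The window of Jchain is chr5:88527848-88528147 on the minus strand and that of Cd79a chr7:24897247-24897546 on the plus strand. Each held 1 E-box, which 20.2% of 32851 promoters of this length also held. Neither held the octamer ATGCAAAT (1.74% of promoters) or the PU.1 motif GAGGAAGT (3.2%), on either strand. A match is a description of the letters and not a binding site.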

How the data were processed

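RNA of 8 mouse liver libraries (4 high salt, 4 normal chow, grouped by the diet label) was sequenced from total RNA with the Illumina TruSeq kit, per the labels' protocols. The deposited file is a count table, with an integer number of reads for every gene in each library and no scaling, as its headers and values show. HISAT2 2.1.0, StringTie 1.3.2d, HTSeq 0.6.0 and GRCm38 appear in the submitters' processing notes without a stated role. No strand setting and no rule for multiply matched reads are given in the sources used here. The authors also deposited, in columns named in the file headers, their linear fold (a ratio), the log2 of it, and p-values before and after adjustment. These are quoted only where named, and no source used here gives the tool. A further line of the table was empty and was not analysed here.

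Deposited counts were fitted with edgeR 4.0.16 in R 4.3.3 (TMM, filterByExpr, robust quasi-likelihood), with Benjamini-Hochberg adjustment over the 13341 of 24317 genes that passed, and a two-sided call threshold of 0.05 on the adjusted p. DESeq2 1.42.0 and limma-voom (limma 3.58.1) were alternatives, and all 3 were tested on simulated data. There every gene had the same coefficient of variation between libraries, 0.147. The antibody genes here varied far more or had low counts, so the simulation cannot decide how the tools perform on them. Levels are CPM on the TMM-scaled library size, and lengths are GENCODE M21 exon unions. Total counts ran from 16620368 to 18639685. Replicates of a diet differed by more than sampling noise (chi-square per degree of freedom 9.69 to 36.7 for pairs). Exact Clopper-Pearson intervals and counts cover counting error only, since reads carried no molecular identifiers in the files used.

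The members and the lists were chosen with earlier results of these data known. Named genes are the 8 members, all antibody constant genes, in each other list every called gene or else the 2 of smallest p, the 10 variable genes of highest count, the leading variable gene of each library, and the 8 genes most like the members. Single values of some genes taken by these rules are not reported here. Others are named to show a library pattern and were picked after their values were seen. Alternatives covered scaling, filters, tests, a replicate block and leaving out each library.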

Additional observations from a re-analysis of the deposited data

Results flagged for a closer look

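In 158 groups of 4 values, the highest or lowest library was set against the gap to its nearest neighbour by Dixon's 95% limit. Chance alone would mark about 1 group in 20, and 11 were marked, 3 of them in high salt library 2. Those 3 are antibody genes, and Jchain is a member chosen from these libraries, so its mark restates the choice, and the marks of the 3 in 1 library are not independent of each other. Jchain was at 50.6 CPM in high salt library 2, and at most 12.9 CPM in the other high-salt libraries. Ighg1 was at 3.88 CPM there, with 0.711 CPM next, and the lambda constant gene Iglc2 at 1.70 CPM, with 0.178 CPM next. The IgA share of heavy chain counts was 36.5% in high salt library 1, with 7.32% next. Ighg3 was at 2.72 CPM in normal chow library 2, with 0.121 CPM next. The summed level of B cell precursor genes was 14.3 CPM in normal chow library 1, with 6.07 CPM next, and most of it was Dntt, at 12.7 CPM with 3.94 CPM next. The intestinal marker sum was lowest in high salt library 4, at 47.0 CPM with 71.8 CPM next, as was Fabp2, at 39.4 CPM with 64.3 CPM next. Cd163, a macrophage receptor, was lowest in normal chow library 1, at 28.6 CPM with 37.7 CPM next, and Gramd1b in normal chow library 3, at 1.82 CPM with 2.55 CPM next.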

How the results depend on the processing

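The 40 genes called over the table became 220 with no filter (89 higher, 131 lower), 239 with DESeq2 (98 and 141), 17 with limma-voom (8 and 9) and 11 with a replicate block (8 and 3). Scaling by total counts gave 21 higher and 11 lower, against 20 and 20. Leaving out 1 library at a time gave 4 to 57 calls (2 to 25 higher, 1 to 32 lower), the count falling to 5 without high salt library 1, 18 without high salt library 2, 4 without normal chow library 2 and 11 without normal chow library 3. The cause was not tested. In the lists of B cell and antibody genes the count of 0 became 1 with no filter (Bcl6), 3 with DESeq2 (Ighg2c, Bcl6 and Edem1) and 1 with the replicate block (Ighg2b, adjusted p = 0.0435), and for variable genes 5 with no filter, where 181 and not 3 were tested. The titles number the libraries 1 to 4 in each diet and name no shared animal or batch. Same-numbered libraries deviated from their group means with r = -0.216 to 0.116, and not every library correlated best with its own number, so the block rests on a number alone. The median log2 fold change of the members, 1.47, ran from 0.598 (without high salt library 2) to 1.82 when single libraries were left out. Of the members, 7 were higher in high salt under every alternative fitted, and Igha in 14 of 15. Mzb1 was fitted in 6 alternatives only, and not in that without high salt library 2. The members were chosen on this difference and the fits share libraries, so nothing is read from these directions. Counting a variable gene as present from 5 counts instead of 1 took the median number from 98 to 38.5 in high salt and from 76.5 to 8 in normal chow. Of the remaining values, for single genes and list medians, 1096 stayed on their side of the threshold or within the spread between replicates, 12 passed the threshold under an alternative alone and 11 moved by more than the spread. The log2 fold change turned sign under at least 1 alternative for 6 single genes, none of them called, and for the medians of 6 lists. With single libraries left out it ran from -0.38 to 3.49 for Igkv5-39, from -0.0435 to 0.77 for Ighd, from -0.35 to 0.81 for Igha, from -0.0277 to 0.22 for Il7r, from -0.16 to 0.0552 for Csf3r (0.0242 with total counts) and from -0.26 to 0.10 for Cela1. Surface genes and Mzb1, at 3 to 117 counts per library, are limited by depth.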
